A study of Rattus norvegicus with 12 samples.

Results

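Elastic fibers were examined here through 10 genes, Eln, Fbn1, Fbln1, Fbln2, Fbln5, Mfap4, Mfap5, Emilin1, Lox and Ltbp1, taken by symbol, with earlier results of these data known when they were chosen. Each was read from the brightest probe set annotated to its symbol alone, and each of the 10 had 1 such probe set. They stood among 14503 genes that had a probe set of 1 symbol, 11221 of them tested. The array held 26468 probe sets in all, of which 18690 reached the mean log2 signal of the lys spike, a control RNA added to the samples, and were tested. All 10 members passed this filter, and all 10 lay at or above the lys spike on each of the 12 arrays.

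An elastic fiber has a core of cross-linked elastin on a scaffold of microfibrils, thin filaments built mainly from fibrillin-1. Smooth muscle cells lay down most of the elastin of an artery and fibroblasts part of the microfibrils, and endothelial cells (ECs) also make both and rest on an internal elastic lamina beneath the intima. The ductus arteriosus (DA), the fetal vessel that joins the pulmonary artery to the aorta and closes after birth, is known for sparse elastic fibers and a fragmented internal elastic lamina compared with the aorta beside it.

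ECs were sorted by FACS as CD31+/CD45- cells from enzyme-dispersed DA or aorta of Wistar rats, and their RNA was hybridized to Rat Gene 1.0 ST arrays. There were 4 groups of 3 arrays, DA ECs and aortic ECs in N, neonates 30 minutes after cesarean delivery, and DA ECs and aortic ECs in F, term fetuses at gestation day 21 that had not breathed. The labels give stage, vessel and replicate number and name no allele or agent. The RNA of each array was pooled from many sorts and litters, and DA and aortic arrays of a stage may share litters, so that p-values cover only the spread from pool to pool.

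Values are the deposited log2 signals, a difference is DA minus aorta unless stated, and a gene was called higher or lower at an adjusted p under 0.05 in limma with Benjamini-Hochberg adjustment over all 18690 probe sets. A signal of 1 probe set is not strictly comparable with that of another, so brightness ranks and summed signals of lists are given as descriptions only. Where the replicate number of the sample titles, fitted as a block, changed a call, that adjusted p is printed beside it. The share of all probe sets called with the block is not given here, so counts with the block stand without that background.

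Array medians lay between 5.63 and 5.76, while the lys spike ran between 4.53 and 6.17 in the 4 arrays numbered 1, between 4.16 and 4.78 in those numbered 2 and between 3.41 and 3.53 in those numbered 3. Of 15 endothelial markers measured, 4 were lower in DA ECs and none was higher (median difference -0.19), and the summed linear signal of the list was 23439 to 24898 in DA ECs, against 26299 to 28167 in aortic ECs. Of 10 smooth muscle markers 3 were higher (Actg2, Tagln and Acta2) and 2 were lower (Myocd and Mylk), with a list median of 0.21 and sums of 3372 to 4390 in DA ECs and 2357 to 2792 in aortic ECs, and with the replicate block 5 were higher (also Myh11 and Cnn1). The defining leukocyte marker Ptprc and the fibroblast marker Lum were below the filter, with mean signals of 3.40 and 2.75. However, 13 of 14 fibroblast markers and 6 of 10 leukocyte markers passed it, and their signals are given further below.

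Over both stages 5 of the 10 members were higher in DA ECs, namely Mfap5, Mfap4, Fbn1, Ltbp1 and Emilin1, by 0.46 to 1.29 on the log2 scale. Fbln1 was lower, with a difference of -0.50, and Eln, Lox, Fbln2 and Fbln5 were not called, with differences of -0.09 to -0.24. With the replicate block Eln and Lox were called lower too, so that 5 were higher and 3 lower. Without the block, 3.19% of all probe sets tested were called higher and 4.93% lower in the same comparison. Of the 10 members 5 differed above 0 and 5 below 0. Their median of 0.18, beside -0.00041 for all probe sets tested, fell in the gap between Fbln5 and Emilin1, where no member lay. In N 4 members were called higher and 0 lower by limma, with 1.26% and 1.87% of all probe sets called in these directions, and at an unadjusted p under 0.05 Emilin1 was also higher and Fbln1 lower. With the block 5 were higher and 1 lower in N. In F 4 were called higher and 1 lower, with 1.49% and 2.28% of all probe sets, and with the block 5 higher and 2 lower.

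The DA and aortic arrays did not overlap for 7 of the 10 members. For 5 members all 6 DA arrays lay above all 6 aortic arrays, as for 2.91% of all probe sets tested. For Fbln1 and Lox all 6 DA arrays lay below all 6 aortic arrays, as for 4.07% of the probe sets. The arrays of the remaining 3 members, Eln, Fbln2 and Fbln5, overlapped.

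**Figure D1:**
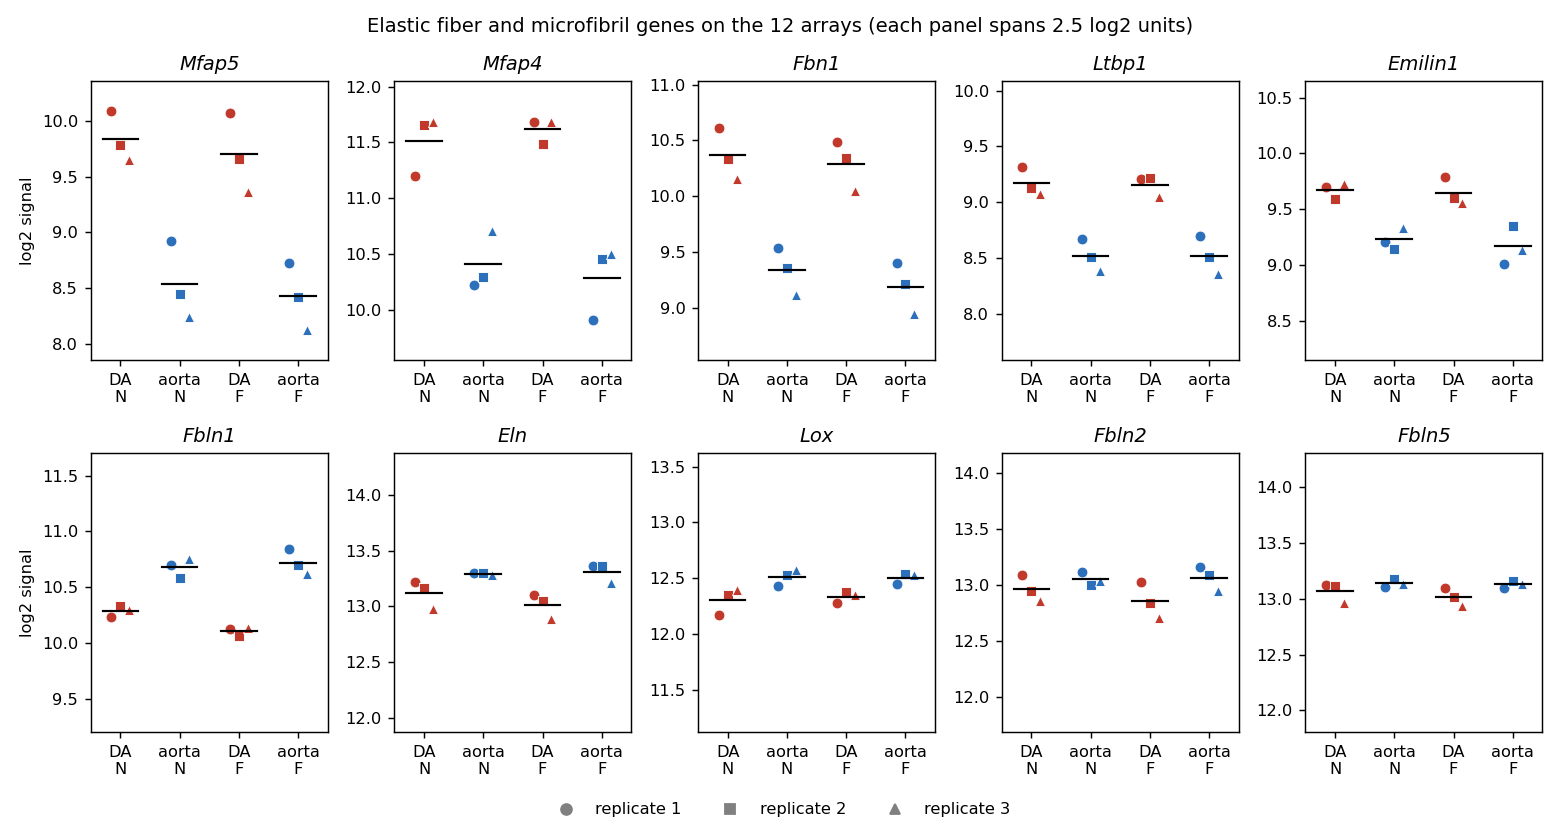
Log2 signal (vertical axes, each panel with its own level and the same span) of the 10 genes on each of the 12 arrays by vessel and stage, with a point per array, its shape giving the replicate number, and a bar for the mean of the 3 arrays of a group. The DA points of Mfap5, Mfap4, Fbn1, Ltbp1 and Emilin1 lie above all aortic points at both stages, those of Fbln1 and Lox lie below, and those of Eln, Fbln2 and Fbln5 overlap with the aortic points over both stages.

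Fibrillin-1, the product of Fbn1, is the main protein of the microfibril. In N its signal was 10.62, 10.33 and 10.15 in DA ECs, against 9.53, 9.36 and 9.12 in aortic ECs. In F the DA arrays read 10.48, 10.34 and 10.05, and the aortic arrays 9.40, 9.21 and 8.95. Every DA array was above every aortic array, and within each group replicate 1 was the highest and replicate 3 the lowest. Fbn1 was higher in DA ECs by 1.07 ± 0.12 (SE) over both stages, 2.10-fold, at an adjusted p of 0.000115, by 1.03 in N (adjusted p = 0.00510) and by 1.11 in F (adjusted p = 0.00276). The arrays that share a replicate number differed by 0.97 to 1.13 in all 6 pairs.

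Mfap5 encodes a small glycoprotein that binds fibrillin along the microfibril. In N it read 10.09, 9.78 and 9.65 in DA ECs, against 8.93, 8.45 and 8.24 in aortic ECs. In F it read 10.07, 9.66 and 9.37 in DA ECs, against 8.73, 8.42 and 8.13 in aortic ECs. The vessels were separate on all arrays, and the order of the replicates was that of Fbn1. The difference was the largest of the 10 genes over both stages, 1.29 ± 0.16 (SE) or 2.44-fold (adjusted p = 0.000221), with 1.30 in N (adjusted p = 0.00622) and 1.27 in F (adjusted p = 0.00581).

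Ltbp1 encodes a protein that anchors latent TGF-beta to microfibrils. It read 9.32, 9.12 and 9.07 in DA ECs of N, against 8.67, 8.51 and 8.38 in aortic ECs. The F group gave 9.21, 9.22 and 9.04 in DA ECs, against 8.70, 8.51 and 8.36 in aortic ECs. The lowest DA array was above the highest aortic array. Ltbp1 was higher in DA ECs by 0.64 ± 0.092 (SE), 1.56-fold (adjusted p = 0.000619), by 0.65 in N (adjusted p = 0.0152) and by 0.63 in F (adjusted p = 0.0141). The calls within a stage ended without any 1 of 4 arrays, and that in N also in a fit of its 2 groups alone (adjusted p = 0.0770). In N the adjusted p was 0.0572 without DA replicate 1, 0.0573 without DA replicate 2, 0.0647 without aortic replicate 2 and 0.0670 without aortic replicate 3. In F it was 0.0577 without DA replicate 1, 0.0660 without DA replicate 2, 0.0587 without aortic replicate 2 and 0.0735 without aortic replicate 3.

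The signals of Fbn1, Mfap5 and Ltbp1 ran together over the 12 arrays, with Pearson's r of 0.99 for each of the 3 pairs. After removal of the group means the deviations still ran together, with r of 0.95 for Fbn1 and Mfap5, 0.96 for Fbn1 and Ltbp1 and 0.91 for Mfap5 and Ltbp1. These values describe 12 arrays that share 2 vessels and 3 replicate numbers. The promoters of Mfap5 and Ltbp1 are shown as a description, and any part of their sequence in these signals was not tested. The Fbn1 window, which held no CCAAT box, lay inside the annotated gene and is not shown. The stretches are the bases before the annotated gene from RefSeq on build GRCr8, at chr4:157399669-157399918 on the plus strand (250 bases) and at chr6:26177347-26177551 on the minus strand (205 bases), written 5′ to 3′ with every CCAAT box of either strand (CCAAT or ATTGG) in capitals. The Ltbp1 stretch ends 45 bases before the start site of its promoter window, since those bases lie inside the annotated gene.
Mfap5: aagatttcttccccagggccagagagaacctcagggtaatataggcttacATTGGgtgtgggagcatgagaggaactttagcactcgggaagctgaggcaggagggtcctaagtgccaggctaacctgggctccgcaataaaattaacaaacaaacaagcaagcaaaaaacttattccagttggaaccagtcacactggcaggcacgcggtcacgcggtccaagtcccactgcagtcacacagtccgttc
Ltbp1: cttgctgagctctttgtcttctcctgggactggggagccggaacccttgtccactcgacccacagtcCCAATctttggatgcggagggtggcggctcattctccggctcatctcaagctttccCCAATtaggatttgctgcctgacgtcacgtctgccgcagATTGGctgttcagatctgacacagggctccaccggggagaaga

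The Mfap5 stretch held 1 CCAAT box and the Ltbp1 stretch 3. A promoter window was found for 5 of the 10 members, and the 250 bases before the start site held CCAAT in 2 of these 5 (Mfap5 and Ltbp1), against 34.0% of 33469 rat promoters of the same length. GGGCGG, the GC box, was found on either strand in 2 of 5 (Fbln2 and Fbln5), against 30.5% of the promoters. CAGAC, bound by SMAD proteins, was found in 3 of 5 (Fbn1, Fbln5 and Ltbp1), against 42.9%. TATAAA had no match in the 5 windows, against 12.9% of the promoters. GGAATG, bound by TEAD proteins, had none either, against 12.1%. TGANTCA, bound by AP-1, and the CArG box, bound by serum response factor, also had none, against 6.34% and 1.50%. The matched motifs did not overlap each other.

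Mfap4 encodes a fibrinogen-related protein that binds elastin, collagen and microfibrils. In N it read 11.20, 11.66 and 11.68 in DA ECs, against 10.23, 10.30 and 10.70 in aortic ECs. In F it read 11.69, 11.48 and 11.68 in DA ECs, against 9.91, 10.45 and 10.50 in aortic ECs. The vessels did not overlap, but in 3 of the 4 groups replicate 1 was the lowest array, unlike Fbn1. Mfap4 was higher in DA ECs by 1.22 ± 0.14 (SE), 2.32-fold (adjusted p = 9.67e-05), by 1.10 in N (adjusted p = 0.00644) and by 1.33 in F (adjusted p = 0.00157). Arrays of the same number differed by 0.97 at the least.

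Emilin1 encodes a glycoprotein at the interface of elastin and microfibril. It read 9.70, 9.59 and 9.73 in DA ECs of N, against 9.20, 9.15 and 9.34 in aortic ECs. In DA ECs of F it read 9.79, 9.60 and 9.56, against 9.01, 9.35 and 9.14 in aortic ECs. The 6 DA arrays lay above the 6 aortic arrays and the pairs differed by 0.25 to 0.78. Emilin1 was higher over both stages by 0.46 ± 0.087 (SE), 1.38-fold (adjusted p = 0.00473). Within a stage the difference was 0.44 in N (adjusted p = 0.0886, with the replicate block 0.0374) and 0.48 in F (adjusted p = 0.0532, with the block 0.0197). In F it was also called without aortic replicate 2 (adjusted p = 0.0450), with probe sets at or above the lys spike on all 12 arrays (0.0303), after quantile normalization (0.0371) and with trend and robust settings (0.0304), and in N with array weights (0.00553).

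**Figure D2:**
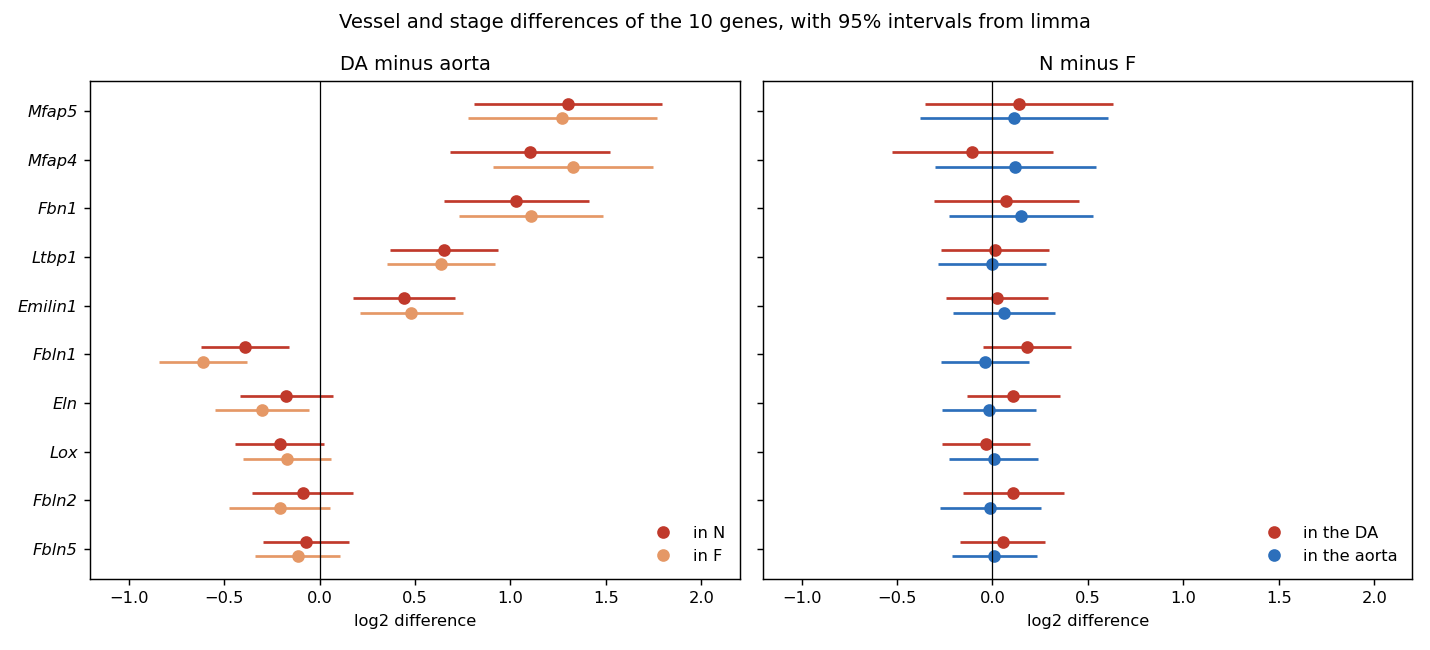
Log2 difference of each of the 10 genes (horizontal axes) with its 95% interval from limma, DA minus aorta in N and in F on the left and N minus F within each vessel on the right. On the left Mfap5, Mfap4 and Fbn1 lie at 1.03 to 1.33, Ltbp1 and Emilin1 at 0.44 to 0.65 and Fbln1 below 0, and on the right every interval crosses 0.

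Fibulins connect elastin to the microfibril and to the cell surface. The differences of the 3 fibulin genes among the members were below 0, of which that of Fbln1 was called over both stages. Fibulin genes outside the members did not share this direction. Efemp2 was higher by 0.93 (adjusted p = 0.000308), and Efemp1, named after its value was seen, differed by 0.024 (adjusted p = 0.959). Fbln1 encodes fibulin-1, found within elastic fibers and basement membranes. It read 10.23, 10.33 and 10.30 in DA ECs of N, against 10.70, 10.59 and 10.75 in aortic ECs. In F it read 10.12, 10.06 and 10.13 in DA ECs, against 10.84, 10.70 and 10.62 in aortic ECs. All DA arrays were below all aortic arrays, and the DA arrays of F were the lowest 3 of the 12. The difference was -0.50 ± 0.075 (SE) over both stages (adjusted p = 0.000869), so that aortic ECs had 1.42-fold the signal. In F it was -0.61 (adjusted p = 0.00494), and in N -0.39 (adjusted p = 0.0773, with the replicate block 0.0245). In N it was also called with probe sets at or above the lys spike on all 12 arrays (adjusted p = 0.0402), with trend and robust settings (0.0313) and with array weights (0.0168). The difference between the stages was not called by limma (0.22 ± 0.15, SE).

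Fbln2 encodes fibulin-2, found with elastin and versican in the vessel wall, and Fbln5 encodes fibulin-5, which ties elastin to integrins and is needed for elastic fibers in mice. Fbln2 signals were 12.70 to 13.09 in DA ECs, against 12.95 to 13.16 in aortic ECs, with a difference of -0.15 (95% interval -0.34 to 0.037, adjusted p = 0.420). Fbln5 signals were 12.93 to 13.12 in DA ECs, against 13.10 to 13.18 in aortic ECs, with a difference of -0.093 (95% interval -0.25 to 0.064, adjusted p = 0.609). The DA and aortic ranges overlapped for both genes, although for Fbln2 the DA array was below the aortic array of the same number in 6 of 6 pairs and for Fbln5 in 5 of 6. Neither gene was called under the replicate block (adjusted p of 0.118 and 0.344).

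Eln encodes tropoelastin, the soluble form of elastin. In N it read 13.22, 13.16 and 12.98 in DA ECs, against 13.30, 13.29 and 13.28 in aortic ECs. In F it read 13.10, 13.05 and 12.88 in DA ECs, against 13.36, 13.36 and 13.21 in aortic ECs. Within each stage all 3 DA arrays were below all 3 aortic arrays, while over both stages the highest DA array of N (13.22) passed the lowest aortic array of F (13.21). The difference was -0.24 over both stages (95% interval -0.41 to -0.063, adjusted p = 0.107, with the replicate block 0.0179). With trend and robust settings or with array weights it was called as well (adjusted p = 0.0274 and 0.0234). It was -0.17 in N (adjusted p = 0.755) and -0.30 in F (adjusted p = 0.234, with the block 0.0455).

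Lox encodes lysyl oxidase, the enzyme that starts the cross-linking of elastin and collagen. It read 12.17, 12.35 and 12.39 in DA ECs of N, against 12.43, 12.53 and 12.57 in aortic ECs. In DA ECs of F it read 12.28, 12.38 and 12.35, against 12.45, 12.54 and 12.53 in aortic ECs. All 6 DA arrays were below all 6 aortic arrays, by small steps of 0.16 to 0.27 in same-number pairs. The difference of -0.19 (95% interval -0.35 to -0.025) was not called (adjusted p = 0.189), and was called with the replicate block (adjusted p = 0.0432). Within N and F it was -0.21 and -0.17 and was not called with or without the block.

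The signals of Eln, Fbln5 and Fbln2 were among the brightest of the array, with 4, 10 and 15 of the 18690 probe sets brighter by their mean, and 75 were brighter than Lox. The highest signal of any probe set on an array was between 13.4 and 13.7. Whether signals this close to the top follow the amount of RNA as dimmer ones do was not tested.

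In a bulk sample, more cells of a type and more RNA per cell cannot be told apart. The part of the smooth muscle signal given above in the differences of the 10 genes was not tested. Other markers moved with the vessel too. Of 7 pericyte markers 2 were higher in DA ECs (Cspg4 by 0.79 and Pdgfrb by 0.34; list median 0.19), with summed signals of 7893 to 8621 in DA ECs and 6877 to 7648 in aortic ECs, and with the replicate block 4 were higher. Of 6 mesothelial and epicardial markers 2 were higher (Tbx18 by 1.15 and Msln by 0.56), with a list median of 0.05 and sums of 2026 to 2259 in DA ECs and 983 to 1108 in aortic ECs. Tbx18, at mean signals of 10.86 in DA ECs and 9.71 in aortic ECs of N, made up most of these sums. Of 13 fibroblast markers 1 was higher (Col1a2) and 1 lower (Col1a1), the list median was 0.10 and the sums overlapped, with 11486 to 13160 in DA ECs and 11552 to 12635 in aortic ECs. With the replicate block 4 fibroblast markers were higher and 2 lower. Of 6 leukocyte markers 1 was lower in DA ECs (Cd14), with a list median of -0.01 and sums of 356 to 467 in DA ECs and 451 to 582 in aortic ECs. The part of these lists in the differences was not tested either.

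**Figure D3:**
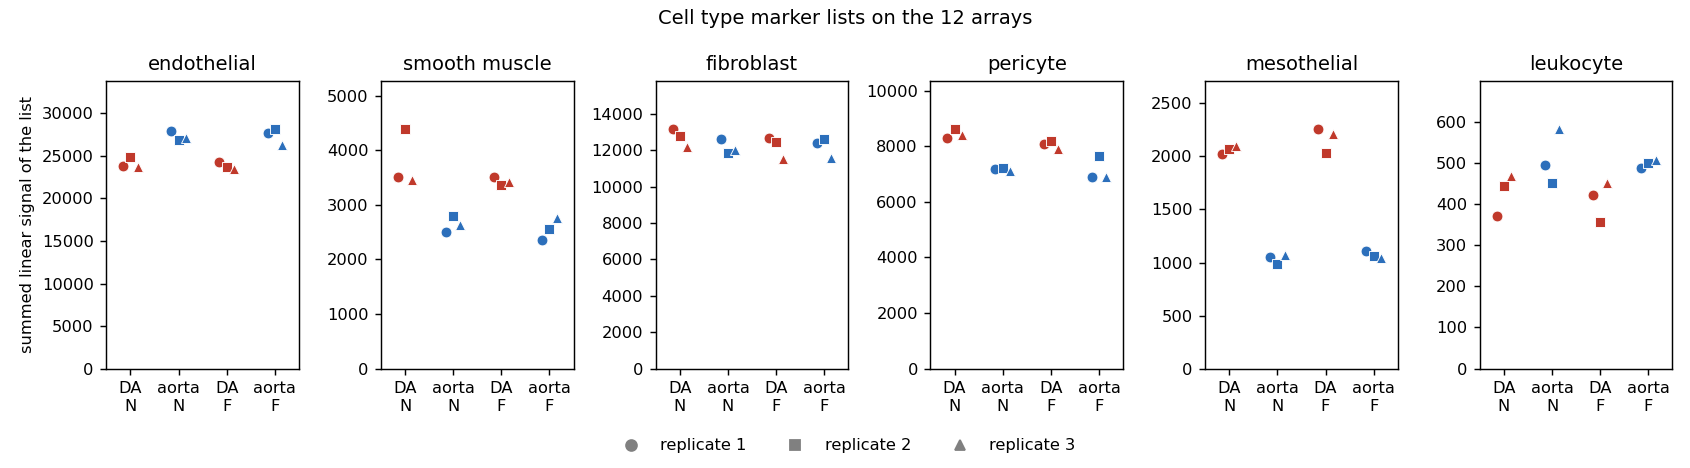
Summed linear signal of 6 lists of cell type markers on each array, with a point per array and 1 vertical scale per list (in the mesothelial list Tbx18 makes up most of the sum). Smooth muscle, pericyte and mesothelial sums are higher on all DA arrays than on all aortic arrays, endothelial sums are lower, and fibroblast and leukocyte sums overlap.

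Birth was the second factor of the design, and no member was called between N and F. In DA ECs the differences, N minus F, ran from -0.10 for Mfap4 to 0.18 for Fbln1, with 95% intervals inside -0.53 to 0.63. In aortic ECs they ran from -0.04 for Fbln1 to 0.15 for Fbn1, with intervals inside -0.38 to 0.61. The bounds allow changes of up to about that size for the genes with the widest spread, among them Mfap5. Of all probe sets tested 1 (0.00535%) was called by limma between N and F in DA ECs and 0 (0%) in aortic ECs, and at an unadjusted p under 0.05 there were 375 and 257, none of them a member.

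The DA-to-aorta difference itself was set between the stages. The difference in N minus that in F lay between -0.22 for Mfap4 and 0.22 for Fbln1, with 95% intervals inside -0.82 to 0.73, and no member was called. Of all probe sets tested 0 (0%) were called in this comparison by limma, and 174 had an unadjusted p under 0.05, with 0 members among them. A member called in F and not in N, such as Fbln1, was therefore not shown to differ between the stages.

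The members fell into sets by how their arrays deviated from the group means. Arrays numbered 1 lay on average 0.33 above the group mean for Mfap5, 0.21 above for Fbn1, 0.13 above for Ltbp1 and 0.11 above for Fbln2. Arrays numbered 3 lay 0.28, 0.23, 0.13 and 0.10 below it for the same genes. Mfap4 deviated the other way, with -0.20 in arrays numbered 1 and 0.19 in those numbered 3, and Lox did so by smaller amounts, -0.08 and 0.05. For Emilin1 the mean deviations of the 3 numbers were within 0.01 of 0. The correlation of deviations was -0.79 between Fbn1 and Mfap4, -0.89 between Ltbp1 and Mfap4 and 0.89 between Eln and Fbln2, as a description of 12 arrays. The lys spike was also lowest in the arrays numbered 3, and its part in the deviations was not tested.

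**Figure D4:**
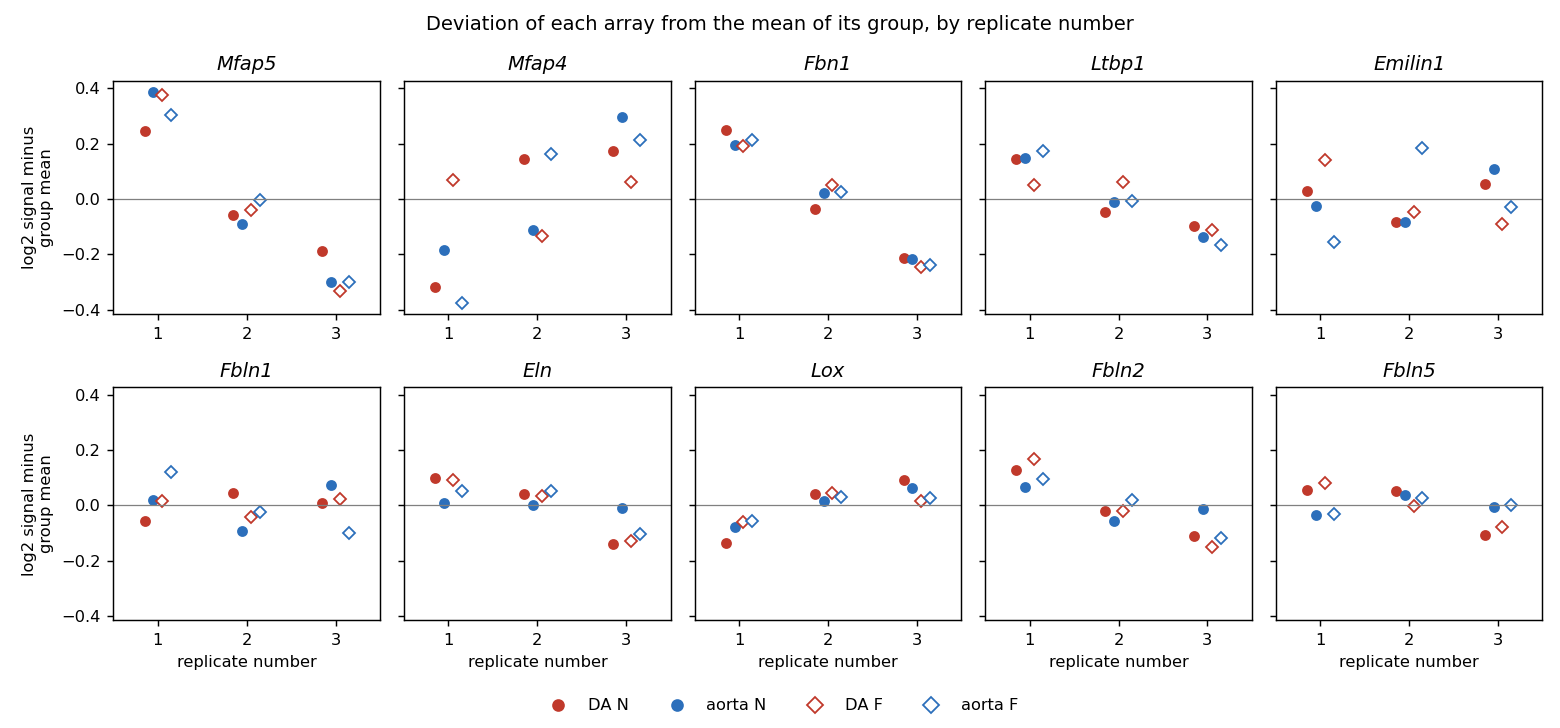
Deviation of each array from the mean of its group (log2, vertical axis) for the 10 genes, by replicate number, with a point per array. Mfap5, Fbn1 and Ltbp1 lie above 0 in all 4 arrays numbered 1 and below 0 in all 4 numbered 3, and Mfap4 lies above 0 in all 4 arrays numbered 3.

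Over the 12 arrays, among 11220 other named genes, those most like Mfap5 were Fbn1 and Ltbp1 (r = 0.99 each) and Prom1 (r = 0.98). Ltbp1 had Fbn1, Prom1 (r = 0.99 each) and Efemp2 (r = 0.99) nearest, and Fbn1 had Mfap5, Ltbp1 and Prom1 (r = 0.99 each). Mfap4 was closest to Slco3a1 (r = 0.99), Slc39a8 and Gpr182 (r = 0.98 each), and Emilin1 to Nr2f1 (r = 0.97), Dele1 and Gli2 (r = 0.95 each). For Fbln1 these were Aox1 (r = 0.98), Rilp and Ace (r = 0.97 each). Lox was closest to Slco2a1 (r = 0.97), Sox13 and Synpo (r = 0.95 each). For Eln the nearest were Fn1, Nfkbia and Niban1 (r = 0.96 each), for Fbln2 Adal, Trappc8 and Mtmr3 (r = 0.95 each) and for Fbln5 Inpp1, B3gnt2 and Itprid2 (r = 0.90 to 0.91). The arrays share the vessel difference, which enters every one of these values.

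Genes that work beside the 10 members were read from lists. Of 41 further genes of elastic fiber assembly, 27 were measured, 5 were higher in DA ECs, 3 were lower and 19 were not called, with a median difference of 0.01. With the replicate block 6 were higher and 5 lower. The largest rise was that of Efemp2, which encodes fibulin-4, needed for elastin cross-linking in mice, by 0.93 ± 0.12 (SE, adjusted p = 0.000308). It read 8.88 ± 0.27 in DA ECs and 7.96 ± 0.26 in aortic ECs of N (SD, n = 3 each), and 8.82 ± 0.10 in DA ECs and 7.88 ± 0.20 in aortic ECs of F. The lysyl oxidase relatives Loxl2 and Loxl1 were both higher by 0.54 (adjusted p = 0.00956 and 0.00264), and Loxl3 differed by -0.0054 (adjusted p = 0.994). Adamtsl3, a secreted ADAMTS-like protein, was higher by 0.53 (adjusted p = 0.00411). Its signal was near the filter and lay below the lys spike on 4 arrays. The mean was 5.20 in DA ECs and 4.65 in aortic ECs of N, and 5.12 in DA ECs and 4.61 in aortic ECs of F.

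The lower genes of that list were Col8a1, a short-chain collagen of the subendothelium, with a difference of -0.85 ± 0.13 (SE, adjusted p = 0.00134), and Ltbp2, a microfibril protein, with -0.48 (adjusted p = 0.0238). Ltbp4, a partner of fibulin-5, was lower with -0.31 (adjusted p = 0.0272), and Vcan, the proteoglycan versican, was higher by 0.46 (adjusted p = 0.00138), both named after their values were seen. Within this family Ltbp1 was higher and Ltbp2 and Ltbp4 were lower in DA ECs than in aortic ECs, and Ltbp3 was not called (-0.069, adjusted p = 0.815). Glb1, a gene of the elastin receptor complex, and Vtn, vitronectin, differed by -0.0035 and 0.0072 (adjusted p = 0.994 and 0.991). The microfibril genes Fbn2 and Mfap2 were not called (0.13 and 0.096, adjusted p = 0.688 and 0.791). Mfap3 was not called either (-0.27, adjusted p = 0.0907), and was called lower with the replicate block (adjusted p = 0.0307). Fbn2, Mfap2 and Mfap3 were named after their values were seen.

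**Figure D5:**
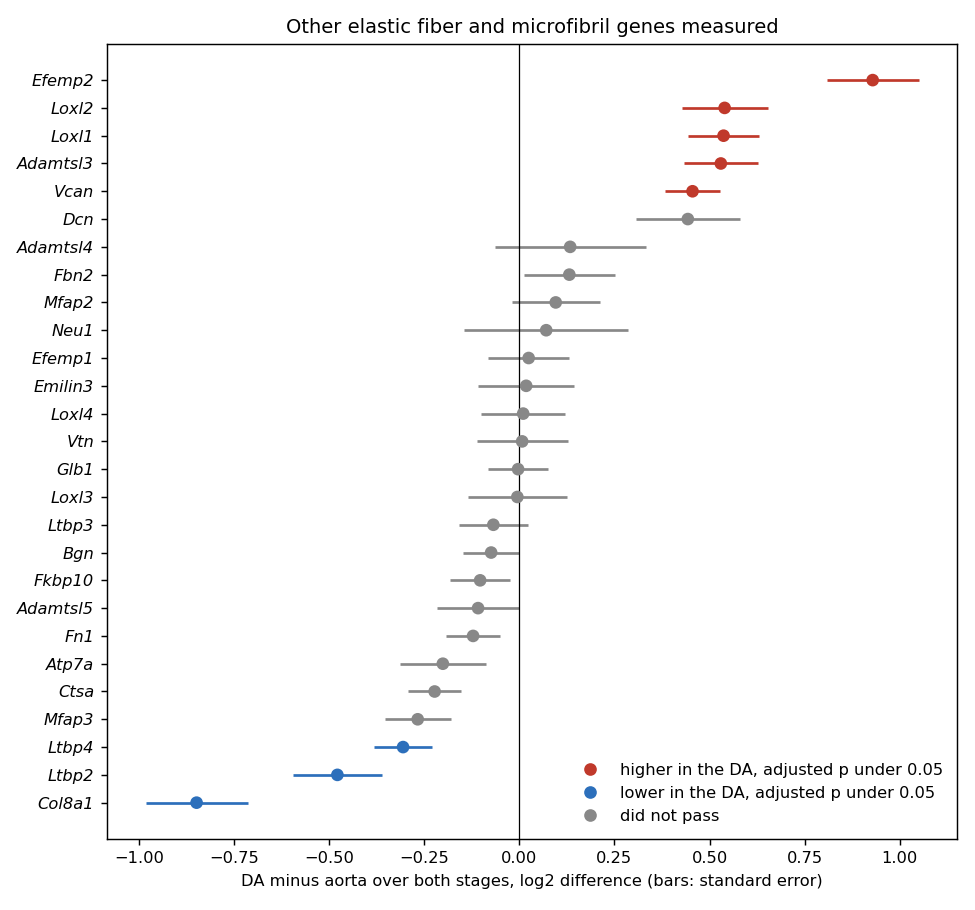
Log2 difference, DA minus aorta over both stages (horizontal axis), with its standard error from limma, for the 27 measured genes of elastic fiber assembly other than the 10 members. The 5 genes called higher in DA ECs are led by Efemp2, the 3 called lower end with Col8a1, and the 19 not called lie between them.

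Of 18 elastin-degrading proteases and their inhibitors 14 were measured, 1 was higher and 0 were lower by limma, with a median of -0.06. With the replicate block 3 were lower, the inhibitors Timp3, Timp4 and Serpina1. The inhibitors Timp1, Timp2 and Cst3 were not called with it (adjusted p = 0.0758, 0.285 and 0.226). Serpina1 and Timp4 were dim, below the lys spike on 3 and 2 of the 12 arrays. The higher gene was Ctsk, cathepsin K, a protease that can cleave elastin, by 0.88 ± 0.12 (SE, adjusted p = 0.000445). Its signal was 7.06 ± 0.34 in DA ECs and 6.20 ± 0.085 in aortic ECs of N, and 6.88 ± 0.25 in DA ECs and 5.97 ± 0.068 in aortic ECs of F (SD, n = 3 each). Mmp14, Elane and Cela1 differed by 0.0044, -0.044 and 0.062 (adjusted p = 0.994, 0.927 and 0.883). Elane and Cela1 were dim, each below the lys spike on 2 of the 12 arrays.

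Among 12 measured genes of TGF-beta storage and response, 3 were higher and 0 were lower by limma, with a median of -0.02, and with the replicate block Itgb8 was lower. Tgfb2, a ligand that Ltbp1 can hold in latent form, was higher by 1.22 ± 0.090 (SE, adjusted p = 2.94e-06), with 10.26 ± 0.066 in DA ECs and 9.15 ± 0.048 in aortic ECs of N and 10.38 ± 0.24 in DA ECs and 9.06 ± 0.067 in aortic ECs of F (SD, n = 3 each). Tgfb3 was higher by 0.64 (adjusted p = 0.0443) and the integrin subunit Itgb3 by 0.39 (adjusted p = 0.0229). Itgb6, Itgb5 and Thbs1 differed by 0.13, -0.18 and 0.18 and were not called (adjusted p = 0.675, 0.485 and 0.184). Itgb6 was near the filter and lay below the lys spike on 4 of the 12 arrays.

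Fibrillar collagens and their enzymes went both ways, with 4 of 12 measured higher, 3 lower and a median of 0.13. With the replicate block 5 were higher (also Col3a1) and 3 lower. P4ha1, a catalytic subunit of collagen prolyl 4-hydroxylase, was higher by 1.53 ± 0.12 (SE, adjusted p = 4.14e-06), whereas P4ha2, the related subunit, was lower with -0.62 (adjusted p = 0.000500). Pcolce, an enhancer of procollagen cleavage, and Col5a1 were higher by 0.48 and 0.46 (adjusted p = 0.0138 and 0.0151). The chains of type I collagen moved apart, Col1a2 being higher by 0.30 (adjusted p = 0.0287) and Col1a1 lower with -0.48 (adjusted p = 0.00453). Plod1, Serpinh1 and Bmp1 differed by 0.013, 0.057 and -0.088 and were not called (adjusted p = 0.969, 0.874 and 0.655).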

How the data were processed

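RNA of sorted ECs was hybridized to 12 Affymetrix Rat Gene 1.0 ST arrays, 3 per group, after amplification with the WT Expression Kit. The authors deposited 1 log2 signal for each probe set and array, already summarised and normalized by a procedure not given in the sources used here. No further normalization was applied. Of 26468 probe sets, 15307 carried 1 symbol in the platform annotation, updated through RefSeq, 323 several and 10838 none. The 18690 whose mean reached that of the lys spike (4.44), the control of the study's own filter, entered a limma fit (limma 3.58.1, R 4.3.3) with a mean for each group, and 7778 were left out. The study's methods used an unadjusted t-test and a fold of 2, tried here as an alternative.

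The members and gene lists were chosen with earlier results of these data known, and Fbn1, Mfap4 and Mfap5 stand in the paper's list of DA-dominant genes. From each further list up to 6 called genes of the largest difference and up to 3 uncalled ones of the smallest were named, and for each member the 3 genes of the highest r. Replicate numbers were checked for pairing. Across probe sets the deviations of arrays with the same number correlated at 0.54 to 0.82 for number 1, 0.10 to 0.30 for number 2 and 0.39 to 0.74 for number 3, against -0.74 to 0.37 for different numbers, so the fit was repeated with the number as a block. No source used here says what the numbers mark. The number of arrays limits the precision.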

Additional observations from a re-analysis of the deposited data

How the results depend on the processing

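With 3 arrays a group, weak calls moved with the processing, and every call within a stage was lost by the methods' t-test with adjusted p. There the adjusted p of Fbn1, Mfap4 and Mfap5 was 0.173, 0.205 and 0.184 in N and 0.121, 0.109 and 0.187 in F. The direction of no called difference was reversed under any alternative. Over both stages, 5 members higher became 3 by the methods' t-test (unadjusted, with a fold of at least 2). The 1 member lower became 2 with trend and robust settings or with array weights, 3 with the replicate block or by the methods' t-test with adjusted p, and 0 by the methods' t-test with the fold. In N the count of 4 higher became 0 by the adjusted methods' t-test, and 0 lower became 1 with the filter at the lys spike on all 12 arrays, with trend and robust settings, with array weights and with the replicate block. In F, 4 higher became 0 by the adjusted methods' t-test, and 1 lower became 2 with the block and 0 by the methods' t-test with or without adjustment.

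Without any single array the counts stayed at 5 higher and 1 lower over both stages, and were 3 to 4 higher in N, 3 to 4 higher in F and 1 lower in F. Chosen after seeing the data, all 4 arrays of 1 replicate number were left out in turn. The counts were then 2 to 4 higher and 0 to 1 lower over both stages, 0 to 3 higher in N, 0 to 4 higher in F and 0 lower in F, and with the replicate block 4 to 5 higher and 1 lower over both stages, 4 higher in N, and 4 higher and 1 lower in F. Without the block the lowest counts came without replicate 2, where Fbn1 and Mfap4 were still called over both stages and the adjusted p was 0.0531 for Mfap5, 0.0998 for Ltbp1, 0.109 for Emilin1 and 0.0901 for Fbln1, with 2 arrays a group. Emilin1 also missed the threshold without replicate 1 (adjusted p = 0.0743) and without replicate 3 (0.0506). No member was called between N and F, or for the difference of the vessel contrast between stages, under any alternative run. The replicate block changed the calls printed beside the results and no other call of a member. With it 2 leukocyte markers and 1 mesothelial marker were lower in DA ECs. The mean over probe sets of a gene gives the same values, as each member has 1 probe set. A fit of the 2 groups alone was not run over both stages or for the difference between stages, which need all arrays, and neither was the t-test for the latter.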
